A study of Mus musculus with 7 samples.

Results

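A set of 10 genes known from cartilage cells, of 23725 gene IDs listed, was followed in sorted osteoblasts: the transcription factor genes Sox9, Sox5 and Sox6, the matrix genes Acan, Comp, Matn1, Matn3, Hapln1 and Snorc, and the signalling gene Ihh. They were chosen by symbol, and the symbols of all 10 matched an Entrez ID in the files. The collagens were left out of the set. Osteoblasts were collected as GFP-positive cells from C57BL/6 mice with an osteocalcin-driven GFP reporter, recorded as male, that carried p53Flox/Flox, a p53 allele that Cre recombinase deletes. The 4 tumor-bearing mice had received adenoviral Cre through the trachea 14 weeks before they were killed, which starts tumors in the lung; the 3 tumor-free mice had the same alleles, and the labels give no treatment of their own for them. In each group 1 mouse was 23 weeks old (tumor-bearing replicate 4 and tumor-free replicate 3) and the others were 31 weeks old. Each library came from 2000 cells of 1 mouse, sorted without CD45, CD31 and Ter119 from digested bone pooled with lineage-depleted marrow, so any bone cell with GFP could enter the gate.

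SOX9 is the transcription factor that specifies chondrocytes, the cells of cartilage. With its partners SOX5 and SOX6 it switches on the genes of cartilage matrix, among them aggrecan (Acan), the link protein that ties aggrecan to hyaluronan (Hapln1), matrilins (Matn1 and Matn3), cartilage oligomeric matrix protein (Comp) and the small proteoglycan gene Snorc. Ihh encodes Indian hedgehog, which prehypertrophic chondrocytes of the growth plate secrete and which acts on neighbouring cartilage and bone cells. Osteoblasts and chondrocytes share a skeletal progenitor that expresses Sox9, and mature osteoblasts normally express little of it.

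Libraries held 77127 to 169774 counts, so that a gene with 0 counts may have had up to 3, equal to 16.9 CPM at the greatest depth and 41.1 CPM at the least. CPM is the usual count rate per library total, here with totals scaled by the trimmed mean of M values (TMM). Marker genes of other cells that the gate could hold were uneven. Of 15 osteoblast genes all 15 had at least 1 count and together had 108 to 262 counts per library. These were 1135 to 1687 CPM with a tumor and 1499 to 2549 CPM without. Bglap, an osteocalcin gene, and Sp7 had 0 to 2 counts per library each. Of 8 endothelial genes 6, including Pecam1, had 0 counts everywhere, the 7 erythroid genes together had 8 to 20 counts per library, and the 13 leukocyte genes 32 to 69. Of those leukocyte counts 218 were of Itgam and 114 of Csf1r, both genes of myeloid cells, with 3 of Ptprc, which encodes the CD45 that the sort removed, and 7 genes at 0 everywhere. The 10 tendon, muscle and nerve genes had 60 to 211 counts per library, and the 9 marrow stroma and adipocyte genes 194 to 317. In CPM the latter were 1781 to 2702 with a tumor and 1887 to 2283 without. Of their 1731 counts, 1111 were of Lpl and 598 of Lepr. In bulk samples like these, fewer cells of a type and less RNA per cell cannot be told apart.

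The set was made up almost wholly of SOX factor counts, and most of its cartilage matrix genes were close to the limit of detection. Acan had the most counts of the matrix genes, at 1 to 12 per library with a tumor and 10 to 13 without. Sox9 and Sox5 held 48.1% and 40.5% of the 1401 counts of the 10 genes over the 7 libraries, and in a single library both together held between 84.7% and 92.2%. The 6 matrix genes and Ihh together had 5 to 40 counts per library. Ihh had 0 counts in all 7 libraries. These are shares of counts of transcript 3′ ends, not levels per length.

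**Figure D1:**
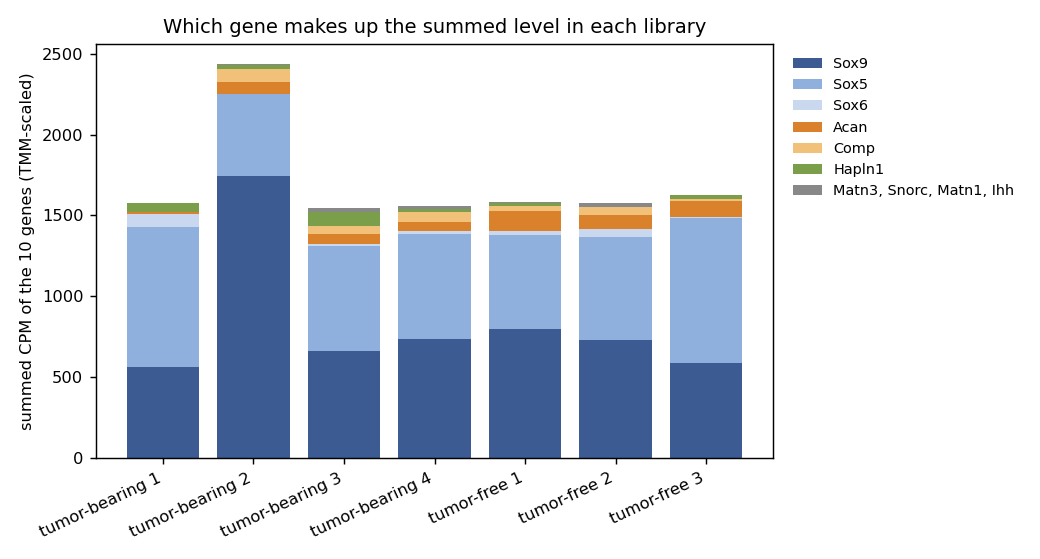
Summed level of the 10 genes in CPM for each library, with 1 bar per mouse; colours mark genes, and Matn3, Snorc, Matn1 and Ihh share one. Sox9 and Sox5 fill most of every bar, and tumor-bearing replicate 2 stands at 2439 CPM where the other 6 libraries lie between 1545 and 1628 CPM.

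The summed level of the 10 genes was nearly level over 6 libraries and high in one. It was 1577, 2439, 1545 and 1555 CPM in tumor-bearing replicates 1 to 4 and 1586, 1579 and 1628 CPM in tumor-free replicates 1 to 3. The groups overlapped, and tumor-bearing replicate 2 alone stood above the rest. The mean was 1779 ± 440 CPM (SD, n = 4) with a tumor and 1597 ± 26.5 CPM (SD, n = 3) without, a log2 ratio of 0.16. Without tumor-bearing replicate 2 the log2 ratio was -0.08, and over the set without Sox9 it was -0.07. Sox9 was the gene behind the high library: it held 71.6% of the counts of the 10 genes there, against 35.7% to 50.3% in each other library.

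Sox9 (Entrez ID 20682, chromosome 11, 112782210 to 112787757, mm10) had 41, 166, 118 and 108 counts in tumor-bearing replicates 1 to 4 and 82, 86 and 73 counts in tumor-free replicates 1 to 3. In CPM these were 562, 1745, 663 and 737 with a tumor and 798, 730.0 and 588 without. Tumor-bearing replicate 2 was more than the spread of counting above every other library: its exact 95% interval was 1439 to 1962 CPM on the unscaled library total, and the highest upper bound elsewhere was 996. By count, Sox9 ranked 41 among all genes in that library and 217 to 545 in the others. The other 6 libraries overlapped between the groups. With age in the model, the log2 fold change was 0.36 (SE 0.40, 95% interval -0.57 to 1.28) and did not pass edgeR's quasi-likelihood test (adjusted p = 0.997). Without tumor-bearing replicate 2 it turned to -0.13.

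Sox5 (ID 20678, chromosome 6, 143828425 to 144782287), a partner that helps SOX9 bind at cartilage genes, did not follow Sox9. It had 63, 48, 115 and 95 counts with a tumor and 60, 75 and 111 counts without, which are 864, 505, 646 and 648 CPM against 584, 637 and 895 CPM. Its lowest level was in tumor-bearing replicate 2, the library where Sox9 was highest, and its groups overlapped. The ratio of Sox9 to Sox5 counts was 3.46 there and lay between 0.65 and 1.37 in the other 6 libraries. Means were 666 ± 148 CPM (SD, n = 4) and 705 ± 166 CPM (SD, n = 3), a log2 fold change of -0.04 (SE 0.26, 95% interval -0.64 to 0.56, edgeR adjusted p = 0.997). That sign turned without tumor-bearing replicate 2 (0.00226) and in 31-week mice alone (0.11). Leaving out either 23-week library also turned it, but with age in the model this is again the comparison of 31-week mice. Exons of Sox5 overlap those of Sox5os1, a transcript of the opposite strand in GENCODE vM21, and no label says whether counting used strand, so reads of both cannot be told apart.

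Sox6 (ID 20679, chromosome 7, 115470872 to 116040776), the other partner, was sparse. It had 6, 0, 2 and 3 counts with a tumor and 2, 6 and 1 counts without, or 28.5 ± 36.8 against 26.1 ± 22.2 CPM (SD, n = 4 and 3). Sox5 and Sox6 act largely in place of each other in mouse cartilage, yet their counts here stood far apart, at 567 and 20 over the 7 libraries. Their longest transcripts in GENCODE vM21 are 7243 and 8668 bases. Since transcript 3′ ends were counted, the counts were not scaled by these lengths.

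**Figure D2:**
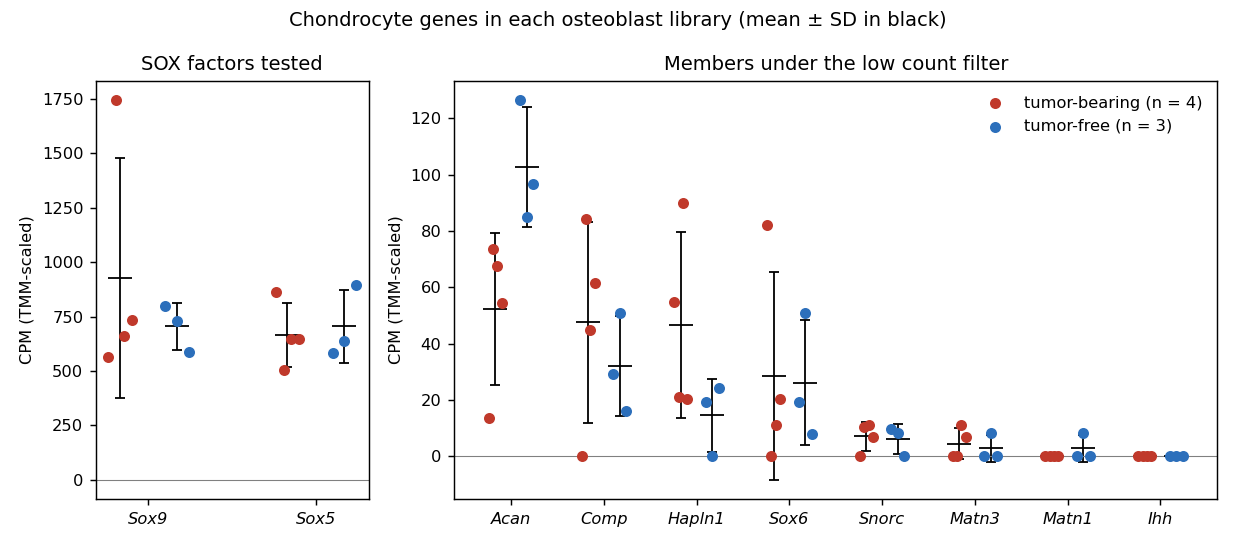
Level of each of the 10 genes in CPM, with 1 point per mouse (red, 4 tumor-bearing; blue, 3 tumor-free) and mean ± SD in black; the panels have different scales. Acan is the one gene of the 10 whose groups do not overlap, and Ihh lies at 0 throughout.

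Aggrecan was the most counted of the matrix genes and the one member whose groups were separate. Acan (ID 11595, chromosome 7, 79053226 to 79115099), the core protein of the large proteoglycan that gives cartilage its resistance to compression, had 1, 7, 12 and 8 counts in the tumor-bearing and 13, 10 and 12 counts in the tumor-free libraries. In CPM these were 13.7, 73.6, 67.4 and 54.6 with a tumor against 126, 84.9 and 96.7 without. Each tumor-bearing library lay below each tumor-free one. Means were 52.3 ± 26.9 CPM (SD, n = 4) and 103 ± 21.4 CPM (SD, n = 3). Of all 13344 genes with a count, 2% had groups apart in this direction and 3.35% in either; of the 2495 genes that passed the filter 1.32% did in this direction. The gene missed the low count filter, which asks for 84.3 unscaled CPM in 3 libraries, since it reached that in 2. In a fit with no filter its log2 fold change was -0.86 (SE 0.53, 95% interval -1.89 to 0.17), which did not pass edgeR's test (adjusted p = 0.819, unadjusted 0.103). That fit pooled the spread over genes, so its interval does not reflect the spread of Acan itself. The exact intervals of single counts overlapped between the groups (36.5 to 123 unscaled CPM in tumor-bearing replicate 3, and 39.0 to 150 in tumor-free replicate 2). Osteoblast genes tested lay on the same side as Acan in 5 of 6 cases, with 0 of them past the test. Of all 2495 genes tested, 1142 lay on that side. Any link between the osteoblast genes and the Acan values was not tested.

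Hapln1 and Comp lay on the other side and each leaned on few counts. Hapln1 (ID 12950, chromosome 13, 89540529 to 89611832), the link protein, had 4, 2, 16 and 3 counts with a tumor and 2, 0 and 3 without. Tumor-bearing replicate 3 held 53.3% of its 30 counts, and the difference of means fell from 32.0 CPM to 16.4 CPM without that library. In the fit with no filter its log2 fold change was 1.60 (SE 0.86, 95% interval -0.08 to 3.29, edgeR adjusted p = 0.819). Comp (ID 12845, chromosome 8, 70373548 to 70382066), a matrix protein of cartilage and tendon, had 0, 8, 8 and 9 counts with a tumor and 3, 6 and 2 without. Its groups overlapped, at 47.6 ± 35.6 against 32.1 ± 17.6 CPM (SD, n = 4 and 3), and the difference of 15.5 CPM ranged from 2.25 CPM without tumor-bearing replicate 2 to 30.5 CPM without tumor-bearing replicate 1 (7.49 CPM without tumor-free replicate 3, 9.94 CPM without tumor-bearing replicate 4 and 24.95 CPM without tumor-free replicate 2). Comp and Acan had their lowest count in the same library, tumor-bearing replicate 1, which was also the shallowest.

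The other 4 genes were at or near 0. Snorc (ID 73234, chromosome 1, 87470201 to 87475482) had 0 to 2 counts per library, and Matn3 (ID 17182, chromosome 12, 8947929 to 8972028), a matrilin of the growth plate, 0 to 2 counts. Matn1 (ID 17180, chromosome 4, 130944385 to 130955476), another matrilin of cartilage, had 1 count in all, in tumor-free replicate 2. Ihh (ID 16147, chromosome 1, 74945315 to 74951672) had none. Levels under 16.9 to 41.1 CPM per library could be missed at these depths, so the zeros do not show that the genes were silent. No fold is given for Matn1 and Ihh.

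**Figure D3:**
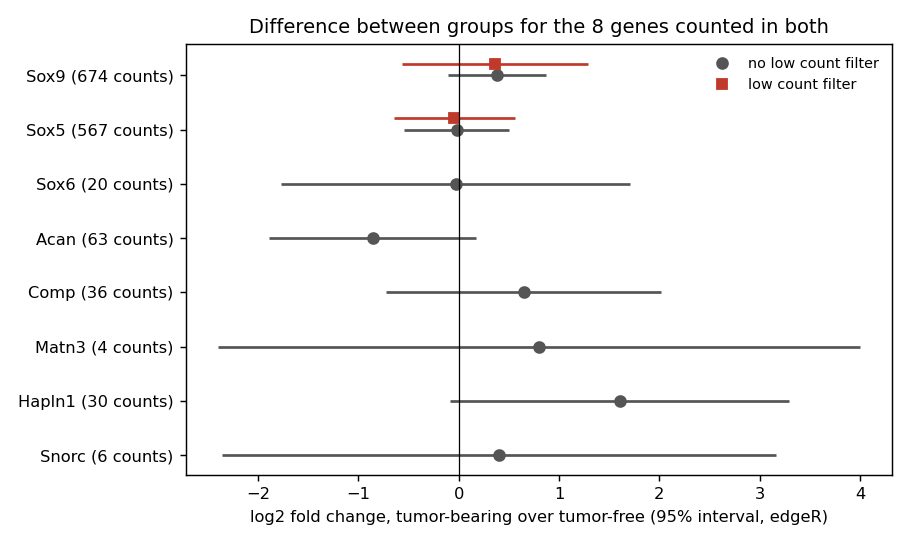
Log2 fold change of tumor-bearing over tumor-free mice with 95% intervals from edgeR, for the 8 genes with counts in both groups (grey, fit with no low count filter; red, fit with the filter, Sox9 and Sox5). Every interval of the 8 genes in either fit includes 0, and Acan is the lowest at -0.86 and Hapln1 the highest at 1.60. Grey intervals use a spread pooled over genes.

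Against the whole table, the 10 genes gave no call. Only Sox9 and Sox5 passed the low count filter and were tested among 2495 genes, and 0 of the 2 passed edgeR's quasi-likelihood test with Benjamini-Hochberg adjustment at 0.05. Over all genes tested, 0% were called (lowest adjusted p = 0.997), 2.36% had an unadjusted p under 0.05, neither Sox9 nor Sox5 among them, and 3.53% had groups that did not overlap. DESeq2 and limma voom also called 0 genes, with 49 and 95 genes at an unadjusted p under 0.05 where edgeR had 59. The median log2 fold change over all genes tested was 0.04. With no filter, 0.285% of 13344 genes were called for tumor and 0.517% for age, with 0 of the 9 members that had a count in either; 4.47% had an unadjusted p under 0.05 for tumor, again with 0 of the 9.

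Age was compared in the same fit, with 2 mice of 23 weeks and 5 of 31 weeks. Sox9 had a log2 fold change of -0.37 (SE 0.44, 95% interval -1.40 to 0.66), 23 over 31 weeks, and Sox5 one of 0.28 (SE 0.28, 95% interval -0.37 to 0.92); neither passed edgeR's test (adjusted p = 0.987 each), nor did any other gene tested (0% called, 4.65% at an unadjusted p under 0.05). The Sox9 value was -0.02 without tumor-bearing replicate 2, and the Sox5 value -0.02 without tumor-free replicate 3. The latter leaves 1 mouse at 23 weeks, which is assumed to vary like the others. Acan had 75.6 CPM on average at 23 weeks and 73.2 CPM at 31 weeks.

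Sox11, Sox8 and Col2a1 were also high in tumor-bearing replicate 2, but Sox6 had 0 counts there and Col11a1 had 3. The matrix genes of the set and Ihh together had 189 CPM there, within the 68.6 to 225 CPM of the other libraries. Sox11, a SoxC factor of progenitor cells, had 37, 140, 94 and 84 counts with a tumor and 88, 93 and 95 without. Sox11 thus had its highest count in the library with most Sox9, and the ratio of Sox9 to Sox11 counts moved far less than either gene. It was 1.11, 1.19, 1.26 and 1.29 with a tumor and 0.932, 0.925 and 0.768 without. The ratio was singled out after its values were seen and was not tested. How often ratios of other gene pairs separate the groups was not counted. Sox8, the closest relative of Sox9 in this list, had 17, 94, 97 and 42 counts with a tumor and 66, 41 and 110 without. Sox8 was high in tumor-bearing replicate 2 and in tumor-free replicate 3. Its exons overlap those of 2810468N07Rik on the opposite strand, so the limit given for Sox5 holds for Sox8 too. Col2a1, the type II collagen gene that SOX9 activates in chondrocytes, had 3, 92, 37 and 1 counts with a tumor and 11, 10 and 19 without, so that 53.2% of its 173 counts were in tumor-bearing replicate 2. The part of this library in the Sox9 difference is given above, by the value without it; what set it apart was not tested.

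**Figure D4:**
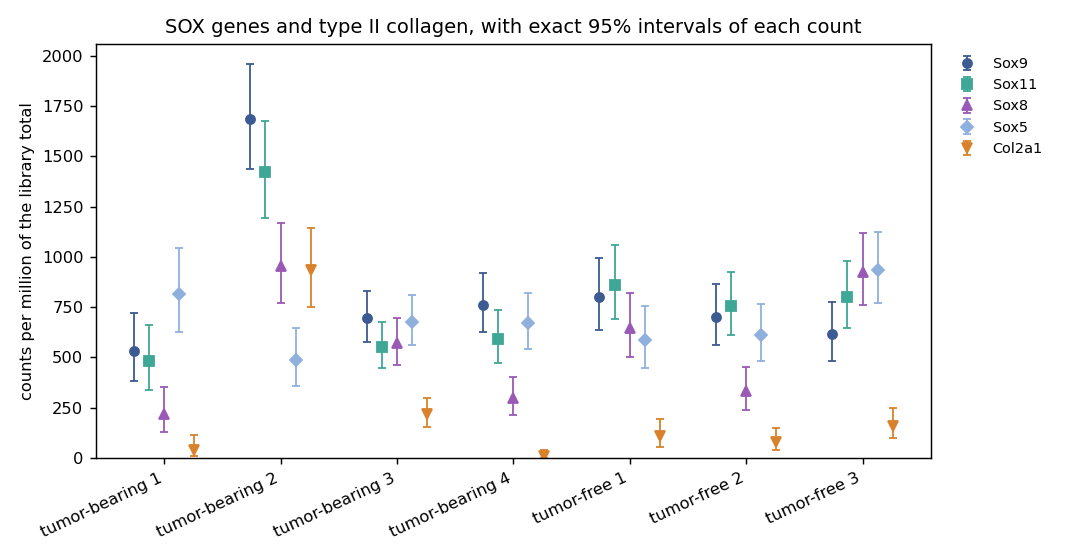
Unscaled CPM (per library total) of Sox9, Sox11, Sox8, Sox5 and Col2a1 in each library, with exact 95% intervals that cover counting error only. In tumor-bearing replicate 2 the intervals of Sox9, Sox11 and Col2a1 lie above those of every other library, and Sox5 is at its lowest.

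Because SOX genes share a DNA-binding HMG box, their transcripts were compared for stretches to which a read could map in both. The longest identical stretches on the same strand of the Sox9 transcript with those of Sox11 (chromosome 12) and Sox8 (chromosome 17), in GENCODE vM21 on GRCm38, are shown in full since the counts of these genes are set side by side above. Both lie in coding sequence. They are written 5′ to 3′, with no letters singled out.
Sox9 and Sox11: cccatgaacgccttcatggtgtgg
Sox9 and Sox8: gtgcagcacaagaaagaccaccc
The first spans 24 bases and the second 23, and Sox9 shared 0 sequences of 25 bases, on either strand, with these transcripts or with that of Sox5. It shared 2 with that of Sox6, and Sox8 and Sox11 shared 3, where their longest common stretch of 27 bases lay outside coding sequence and was almost all T. No label gives the read length. The longest Sox9 transcript, of 4135 bases, held 4 stretches rich in A (at least 11 A in 12 bases) before its last 100 bases, that of Sox5 held 3, Sox11 9, Sox8 0, Acan 1 and Comp 0. Priming on poly(A) can start at such stretches, and whether it did was not tested.

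In the other lists of cartilage genes most members had a count, as did 13344 of all 23725 IDs, but few had enough to be tested. Of 16 further SOX genes, 10 had a count and 2 could be tested, Sox11 with a log2 fold change of -0.11 (SE 0.40) and Sox8 with -0.30 (SE 0.60). Sox7 and Sox4 followed with 31 and 28 counts in all. Of 27 further genes of cartilage matrix or related families, 17 had a count and 3 were tested, all 3 below 0 and 0 called. Ncan, a proteoglycan better known from brain, had a mean ± SD of 722 ± 134 CPM over the 4 tumor-bearing and 951 ± 126 CPM over the 3 tumor-free libraries (log2 fold change -0.39, SE 0.22), and Prg4, the lubricin of joint surfaces, had 29 to 73 counts per library (-0.40, SE 0.38, but -0.0229 without tumor-free replicate 1). Matn4, a matrilin found more widely than Matn1 and Matn3, had 14 to 49 counts (-0.13, SE 0.44), and Ccn2, a matricellular protein of the growth plate, 3 to 9. Among the 8 cartilage collagens Col2a1 alone was tested (0.82, SE 1.45; -0.49 without tumor-bearing replicate 2 and -0.11 without tumor-free replicate 2). Col11a1 had 3 to 9 counts per library, Col11a2 0 to 6 and Col27a1 0 to 5.

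On the receiving side of Ihh, 13 of 19 hedgehog and PTHrP genes had a count and 3 were tested, 2 above 0, 1 below and 0 called. Gli3, the transcription factor that represses hedgehog targets when the signal is off, had 9 to 89 counts per library, 89 of them in tumor-bearing replicate 3 (log2 fold change 0.81, SE 0.51). That value was 0.46 without this library, 0.42 without tumor-free replicate 1 and 1.62 without tumor-free replicate 2. Pth1r, the receptor of PTH and of PTHrP, had 11 to 31 counts (-0.53, SE 0.25), Kif7, which acts on GLI proteins at the cilium, 3 to 26 (0.18, SE 0.45), and Scube2, which helps release hedgehog ligands, 2 to 18. Of 10 genes for cartilage turnover, 8 had a count; the aggrecanase gene Adamts4 was the one tested (10 to 22 counts, -0.30, SE 0.35). Adamts5, the main aggrecanase of mouse cartilage, had 2 to 18 counts, Adamts9 3 to 11 and the collagenase Mmp13 1 to 10. Of 17 genes that make or sulfate glycosaminoglycan chains, 14 had a count and Chst3, a sulfotransferase for chondroitin, was the one tested (16 to 33 counts, -0.08, SE 0.27). Xylt1, which starts the chains, had 0 to 32 counts, 32 of them in tumor-bearing replicate 1; Papss2 had 1 to 9 and Has2 2 to 8. None of the genes tested in these lists passed edgeR's test over all genes, where 0% were called.

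Among the other 2494 genes tested, those whose log2 CPM over the 7 libraries was most like that of Sox9 were Rdh13 (Pearson's r = 0.970) and Ankrd55 (0.966), and those most like Sox5 were Synj2 (0.947) and Ralgapa2 (0.937). These are the highest of 2494 values over 7 points that share depth and scaling, and describe these libraries only. Without tumor-bearing replicate 2 the value for Rdh13 was 0.709 and that for Ankrd55 0.938.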

How the data were processed

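Per the labels' protocols, libraries of transcript 3′ ends were made by a custom CEL-Seq method with unique molecular identifiers, 1 per mouse. Alignment tools in the submitters' processing notes are TopHat2 2.0.10 and SAMtools, with mm10 as the build; how reads were counted, by which annotation and strand, and how identifiers were used, no label states. The authors deposited raw counts, 1 whole number for each Entrez ID. A RefSeq table of GRCm38.p6, the assembly of mm10, named 23666 of 23725 IDs. Each library is a separate mouse, and p-values set a difference against the spread between mice. In the fit with no filter that spread was pooled over genes.

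The low count filter was edgeR's filterByExpr (version 4.0.16) at a minimum count of 10 and a total of 15; 2495 genes passed, holding 84.2% to 87.8% of each library's counts. TMM factors were 0.945 to 1.05. Differences were tested with glmQLFit (robust) and glmQLFTest in R 4.3.3 with tumor and age as factors, adjusted by Benjamini-Hochberg at 0.05 over all genes tested; members under the filter were also fitted with no filter. Log2 fold changes use a prior count of 0.125. Intervals are 95%. Those of single counts are exact Clopper-Pearson intervals and cover counting error only. Those of fold changes come from the edgeR fit and take in the spread between mice. With no filter that spread was pooled over genes, so an interval can be too narrow for a gene that varies more. The SE of Sox9 was 0.25 with no filter against 0.40 with the filter, and that of Sox5 0.27 against 0.26. The floor is 3 counts per library. The likeness of genes used a prior count of 1.

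The members, the lists and the tests were chosen with earlier results of these data known. Named were all 10 members, up to 4 genes with most counts in each cartilage list, and the 2 genes most like each tested member. Alternatives were no age term, 31-week mice, the replicate block, DESeq2 1.42.0, limma voom (limma 3.58.1), RLE, upper-quartile and total-count scaling, no filter, a stricter filter (30 counts in 3 libraries), no robust estimation, and each library left out. Sums over SOX factors alone and without Sox9 and Sox5 were added after seeing the data. The fit with the filter was also run on simulated counts that took their spread from the genes tested. No outcome of that run is given, and it has no bearing on the fit with no filter. A further allele that all 7 mice carried is not reported here.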

Additional observations from a re-analysis of the deposited data

Results flagged for a closer look

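In the tumor-bearing group of 4, tumor-bearing replicate 2 stood apart from the other 3 libraries, by a gap to its nearest neighbour that exceeded Dixon's 95% critical value for 4 samples, for 4 of 38 quantities examined; chance gives about 1 in 20. The summed level of the 10 genes was 2439 CPM against 1577 CPM in the nearest library. Sox9 was 1745 CPM against 737 CPM. Sox11 was 1472 CPM against 573 CPM. The summed level of the SOX family outside the members was 2575 CPM against 1163 CPM, a sum that holds Sox11 and Sox8, so these quantities are not independent. What set this library apart was not tested.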

How the results depend on the processing

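No member was called for tumor in any of the 18 alternatives (lowest adjusted p = 0.819). With no low count filter, 38 genes were called for tumor and 69 for age, against 0 in each with the filter. That fit pooled the spread over genes, and the cause of the calls was not tested. Leaving out 1 replicate in turn kept both counts at 0. The summed level of the 10 genes kept a log2 ratio between -0.08 and 0.18 over the libraries left out, and was 0.21 in 31-week mice, -0.00418 without Sox9 and Sox5 and 0.17 for SOX factors alone. Sox9 kept its sign except without tumor-bearing replicate 2 (range -0.13 to 0.50 over the libraries left out). With age in the model, leaving out a 23-week library (tumor-bearing replicate 4 or tumor-free replicate 3) leaves 1 mouse of that age, so the tumor value is then that of 31-week mice. Sox5 ranged from -0.23 to 0.13 over the libraries left out, where it was 0.00226 without tumor-bearing replicate 2 and 0.08 without replicate 4, and was 0.11 in 31-week mice. Its age value ranged from -0.0203 to 0.54. Sox11 ranged from -0.62 to 0.0119 over the libraries left out (0.00575 without tumor-bearing replicate 1) and was 0.00423 in 31-week mice. Sox8 ranged from -0.78 to 0.25 (0.19 without tumor-bearing replicate 4; 0.24 in 31-week mice). Chst3 ranged from -0.22 to 0.0643 (0.0101 without tumor-bearing replicate 4; 0.0437 in 31-week mice), Col2a1 from -0.49 to 2.06 and Adamts4 from -0.60 to 0.0936. Kif7 ranged from -0.0511 to 0.42 (-0.00974 without tumor-bearing replicate 2 and -0.0504 without tumor-free replicate 1). Matn4 ranged from -0.45 to 0.52 and was 0.13 with limma voom.

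Deviations of same-numbered libraries from their group means, over replicates 1 to 3, correlated at -0.15, -0.20 and -0.14. Libraries with unlike numbers correlated at 0.01 to 0.14. Such deviations sum to 0 within a group, and tumor-bearing replicate 4 was not compared. These values therefore cannot settle whether any libraries were paired. A fit with a replicate block left out tumor-bearing replicate 4 and the age term. Its block 3 held a tumor-bearing mouse of 31 weeks and a tumor-free mouse of 23 weeks. That fit called 0 genes and 0 members, and there Sox9 had a log2 fold change of 0.27 and Sox5 one of -0.14. Depth limits the matrix genes: 8 of the 10 members fell under the filter, and the interval of Acan or Hapln1 spans over 2 log2 units.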
